A study of Homo sapiens with 2 samples.

Results

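The HOXD cluster is the group of 9 HOX genes on chromosome 2, in the order HOXD13, HOXD12, HOXD11, HOXD10, HOXD9, HOXD8, HOXD4, HOXD3 and HOXD1, all transcribed from the + strand. The CpG dinucleotides described here lay within 2000 bp of the transcription start site (TSS) of these genes, in their gene bodies or in the sequence between them. That span, chr2:176955449-177057635 in hg19 (GRCh37), held 3420 of the 28217448 CpG dinucleotides listed for each cell line. Of these, 3315 had more than 5 reads in both lines and were tested.

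Whole-genome bisulfite sequencing (WGBS) had been carried out on 2 established human acute myeloid leukemia (AML) cell lines with different DNMT3A status. OCI-AML3 harbors the R882C mutation on 1 allele of DNMT3A, a DNA methyltransferase that places new methyl groups on CpG dinucleotides, and OCI-AML5, named AML5 by the study, is wild type for it. The study cultured both to the supplier's specifications, and no treatment of either is named. Each line was represented by 1 library and no replicates, and the lines come from different patients, so the DNMT3A mutation cannot be told apart from any other difference between the lines. Bisulfite turns unmethylated cytosine into a base read as thymine, and the share of calls that still read cytosine at a CpG is its methylation level.

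HOX genes encode homeodomain transcription factors that set positional identity along the body axis, and their order on the chromosome follows the order in which they are used in the embryo. The HOXD13 end of the cluster is known for its roles in the limb and the genital bud, whereas the HOXD1 end acts in anterior parts of the body. In blood-forming cells the HOXA and HOXB clusters are the ones known for a role in stem cells and leukemia. CpG-rich sequence covers much of every HOX cluster, and in many cell types it is kept free of DNA methylation or is covered by Polycomb proteins.

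Depth in the cluster was a median of 45 calls per CpG in OCI-AML3 and 33 in OCI-AML5, against 29 and 32 on chromosome 2 as a whole. At the cluster medians, 3 calls correspond to a level of 6.67% in OCI-AML3 and 9.09% in OCI-AML5. CpG-dense sequence was deeper in OCI-AML3 genome-wide as well, with medians of 51 and 36. The tables held 902802339 calls for OCI-AML3 and 894828667 for OCI-AML5, and the mitochondrial genome read 0.168% and 0.101% methylated.

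Windows of 240 bp, 6 in all, show the sequence in which the difference was seen. A CpG is called when the 2-sided Fisher's exact test of its methylated and unmethylated calls gives an adjusted p under 0.05 (Benjamini–Hochberg over 24454751 CpG dinucleotides), and this test compares the libraries, not repeated cultures of the lines. Each window was picked as the one with the most called CpG dinucleotides in its stretch of dense CpGs, so its values are a description. In the first 5 sequences, capitals mark CpG dinucleotides called higher in OCI-AML3, and in the last, CpG dinucleotides called lower in OCI-AML3. Those of HOXD12, HOXD11 and HOXD1 are coding sequence, and that of HOXD9 lies before its TSS. The next lies between HOXD8 and HOXD4, in an intron of a long HOXD3 transcript, and the last between HOXD13 and HOXD12 outside any annotated gene.
HOXD12 exon 1 (chr2:176964654-176964893, + strand): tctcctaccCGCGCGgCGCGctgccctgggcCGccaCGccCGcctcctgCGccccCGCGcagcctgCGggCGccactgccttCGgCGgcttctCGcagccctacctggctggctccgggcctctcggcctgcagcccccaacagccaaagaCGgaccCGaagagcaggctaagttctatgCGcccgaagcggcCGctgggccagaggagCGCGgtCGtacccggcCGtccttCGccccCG
HOXD11 exon 1 (chr2:176972447-176972686, + strand): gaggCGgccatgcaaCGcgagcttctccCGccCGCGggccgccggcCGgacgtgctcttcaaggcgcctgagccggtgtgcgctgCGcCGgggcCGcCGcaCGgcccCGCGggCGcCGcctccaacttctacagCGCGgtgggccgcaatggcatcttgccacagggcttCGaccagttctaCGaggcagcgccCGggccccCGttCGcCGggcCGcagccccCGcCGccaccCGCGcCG
HOXD9 upstream (chr2:176987081-176987320, + strand): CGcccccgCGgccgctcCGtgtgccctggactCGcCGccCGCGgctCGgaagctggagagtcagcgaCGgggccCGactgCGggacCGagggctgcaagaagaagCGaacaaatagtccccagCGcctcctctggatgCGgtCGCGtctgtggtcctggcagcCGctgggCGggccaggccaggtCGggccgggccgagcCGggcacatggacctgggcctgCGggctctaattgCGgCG
HOXD1 exon 1 (chr2:177053684-177053923, + strand): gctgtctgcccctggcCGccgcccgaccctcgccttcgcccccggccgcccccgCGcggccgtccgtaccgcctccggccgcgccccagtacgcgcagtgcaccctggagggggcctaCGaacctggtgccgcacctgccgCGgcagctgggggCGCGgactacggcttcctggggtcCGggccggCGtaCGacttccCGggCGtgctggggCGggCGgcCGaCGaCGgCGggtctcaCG
HOXD8-HOXD4 stretch (chr2:177005411-177005650, + strand): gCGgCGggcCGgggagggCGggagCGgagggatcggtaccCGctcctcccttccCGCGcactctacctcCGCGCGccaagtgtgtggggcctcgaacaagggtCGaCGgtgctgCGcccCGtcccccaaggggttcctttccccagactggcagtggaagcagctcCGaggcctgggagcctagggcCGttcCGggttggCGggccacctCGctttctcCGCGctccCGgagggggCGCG
HOXD13-HOXD12 stretch (chr2:176962269-176962508, + strand): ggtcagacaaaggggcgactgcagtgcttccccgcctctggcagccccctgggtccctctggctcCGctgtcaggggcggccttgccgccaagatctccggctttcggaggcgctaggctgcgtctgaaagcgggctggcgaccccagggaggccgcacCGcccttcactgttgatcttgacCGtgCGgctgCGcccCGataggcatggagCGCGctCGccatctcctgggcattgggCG

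In the HOXD12 sequence, 26 of 31 CpG dinucleotides were called higher, with a mean of 94.8% in OCI-AML3 and 56.9% in OCI-AML5. The HOXD11 sequence had 29 of 38 called higher, with levels of 93.5% and 48.2%. Before HOXD9, 24 of 29 were called higher and 1 lower (87.8% and 50.3%). All 3 are nearly fully methylated in OCI-AML3 and intermediate in OCI-AML5. The HOXD1 sequence moved from 63.8% in OCI-AML5 to 88.0% in OCI-AML3, with 18 of 38 called higher. Between HOXD8 and HOXD4, the level was 23.3% in OCI-AML5 and 75.5% in OCI-AML3, and 25 of 27 were called higher. The last sequence went the other way from a low level, with 15.5% in OCI-AML5 and 0.381% in OCI-AML3, and 10 of 21 called lower.

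Over the whole cluster, methylation was higher in the DNMT3A mutant line. The mean level of the 3315 CpG dinucleotides was 58.8% in OCI-AML3 and 44.0% in OCI-AML5, a difference of 14.8 percentage points. At the single-CpG level, 1150 (34.7%) were called higher in OCI-AML3 and 281 (8.48%) lower. The background went in the opposite direction: among all tested CpG dinucleotides of the nuclear genome, 3.86% were called higher in OCI-AML3 and 14.7% lower, and the mean of all levels was 67.6% in OCI-AML3 and 75.4% in OCI-AML5.

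**Figure D1:**
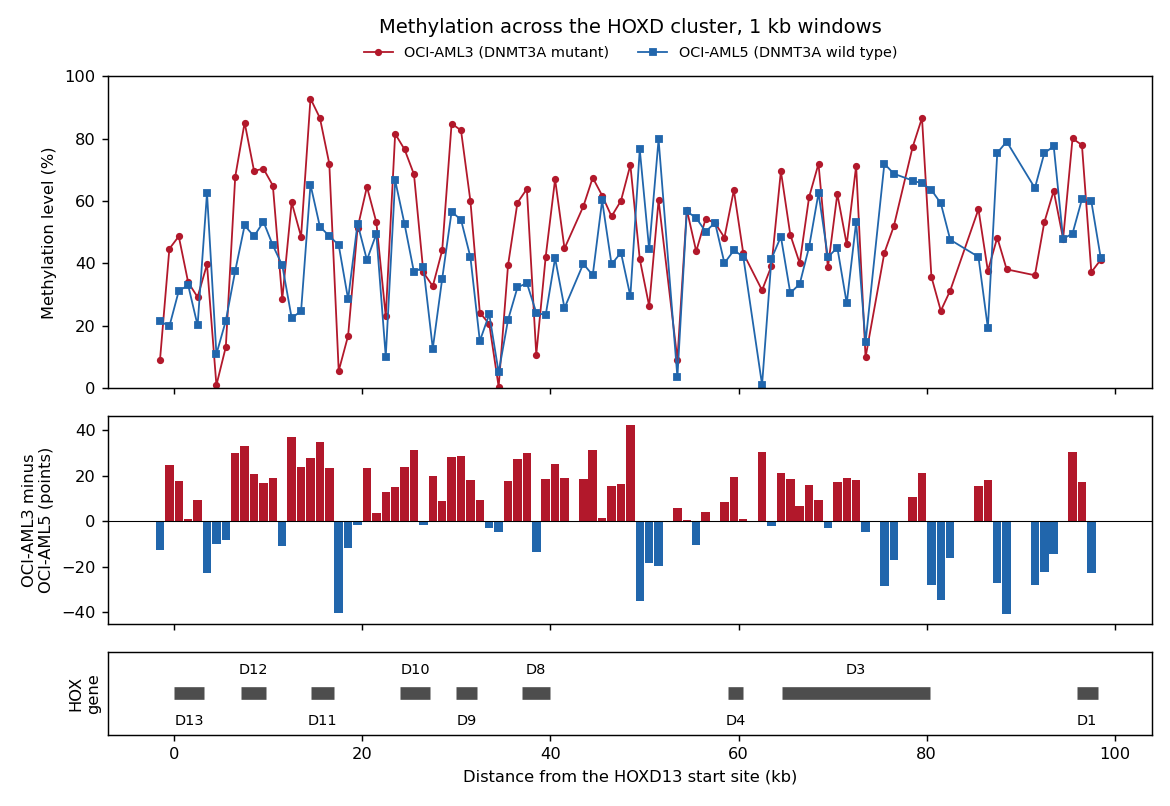
Mean methylation level of 1 kb windows with at least 5 tested CpG dinucleotides (top, %), the difference between the lines (middle, percentage points) and the canonical transcripts of the 9 genes (bottom), against the distance from the HOXD13 TSS in kb. OCI-AML3 lies above OCI-AML5 in 60 of 92 windows and by over 20 points in 23, and below it by over 20 points in 11, several of them between HOXD3 and HOXD1.

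The promoters of all 9 genes, defined by a distance of at most 2000 bp from their most upstream TSS, had a higher mean level in OCI-AML3. The difference was over 20 points in 5 of them, HOXD12, HOXD10, HOXD9, HOXD8 and HOXD3, and no HOXD promoter was lower. Of 19667 promoters of protein-coding genes, 1.79% were higher by over 20 points and 8.61% were lower by over 20 points, with a median difference of -4.68 points. Each HOXD promoter had a larger difference than at least 95.8% of these promoters, and HOXD10 a larger one than 99.0%. That HOXD10 window covers the whole canonical HOXD11 transcript, and around its own canonical TSS HOXD10 differed by 19.9 points.

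**Figure D2:**
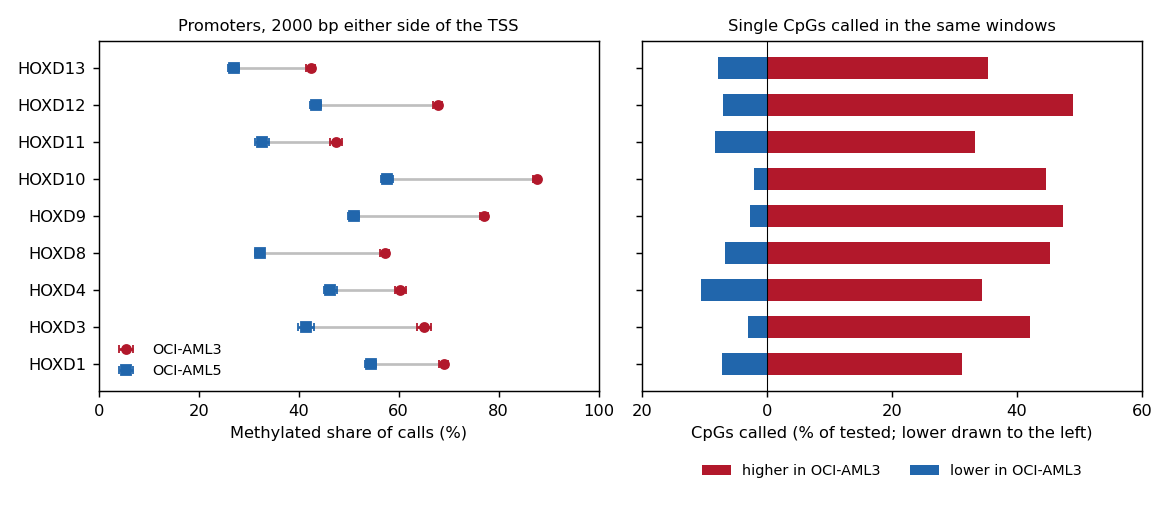
Left, methylated share of calls (%) in each promoter, with Wilson 95% intervals that cover counting error only and take every call as independent. Right, percent of tested CpG dinucleotides in the same window called higher or lower in OCI-AML3, from 31.2% higher at HOXD1 to 48.9% higher at HOXD12.

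Genes at the HOXD13 end encode the posterior HOX proteins. HOXD13, which patterns the digits, had the least methylated promoter in both lines, 43.9% in OCI-AML3 and 27.3% in OCI-AML5, with 72 CpG dinucleotides called higher and 16 lower of 204. The HOXD12 promoter stood at 64.6% and 41.4%, with 91 called higher and 13 lower of 186. Both were thus higher in the mutant line, and HOXD12 by more. HOXD11, which acts in the forearm and the kidney, has an annotated TSS that lies 3064 bp before the canonical one. Its promoter was 49.2% in OCI-AML3 and 32.7% in OCI-AML5 around the upstream TSS, and 80.7% and 52.1% around the canonical TSS. The choice of TSS therefore moved the HOXD11 difference from 16.5 to 28.6 points and left its direction.

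HOXD10, a regulator of hindlimb motor neurons, had the most methylated promoter in both lines around the most upstream TSS, 84.4% in OCI-AML3 and 57.7% in OCI-AML5, with 108 called higher and 5 lower of 242. Its most upstream TSS lies 7988 bp before the canonical one, inside the last part of HOXD11, so that window covers the whole canonical HOXD11 transcript. Around the canonical TSS the levels were 72.2% and 52.3%, a difference of 19.9 points, and the most methylated promoters were then HOXD11 in OCI-AML3 (80.7%) and HOXD1 in OCI-AML5 (56.0%). HOXD9, the neighbouring posterior gene, stood at 76.1% and 51.1%, with 118 called higher and 7 lower of 249. HOXD8, a gene of the central group, started from a lower level, with 54.6% in OCI-AML3 and 31.0% in OCI-AML5, and 122 were called higher and 18 lower of 270.

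Around the canonical TSS, the 3 anterior genes had the smallest differences of the cluster. HOXD4, whose mouse counterpart patterns cervical vertebrae, had 56.8% in OCI-AML3 and 46.1% in OCI-AML5, the smallest promoter difference of the cluster at 10.8 points, with 55 called higher and 17 lower of 160. HOXD3 was 60.7% and 39.8% around the most upstream TSS, which lies 20695 bp before the canonical one and on the far side of HOXD4. Around the canonical HOXD3 TSS the values were 55.2% and 39.8%. In the 2000 bp before the most upstream TSS alone, the difference was 1.65 points at HOXD4 and 6.85 points at HOXD3. At HOXD1 it was over 20 points in that window, more than at HOXD12 (17.0 points). The 3 anterior genes therefore did not all have the smallest differences there. HOXD1, at the end of the cluster, had 70.6% in OCI-AML3 and 56.0% in OCI-AML5, with 69 called higher and 16 lower of 221.

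Most neighbours in the order of the promoters had Wilson intervals that did not overlap. By share of calls in OCI-AML3, HOXD13 came lowest (42.4%, 95% interval 41.4–43.3%), then HOXD11, HOXD8, HOXD4, HOXD3, HOXD12, HOXD1, HOXD9 and, highest, HOXD10 (87.6%, 86.9–88.3%). Only the neighbours HOXD12 (66.9–68.6%) and HOXD1 (68.1–69.9%) had intervals that overlapped. In OCI-AML5 the order ran from HOXD13 (27.0%, 25.9–28.0%) over HOXD8, HOXD11, HOXD3, HOXD12, HOXD4, HOXD9 and HOXD1 to HOXD10 (57.7%, 56.4–58.9%). There the intervals of HOXD8 (31.3–33.1%) and HOXD11 (31.2–34.0%) overlapped, as did those of HOXD3 (39.8–43.1%) and HOXD12 (42.2–44.5%). HOXD13 and HOXD10 were the ends of both orders for the most upstream TSS, and the upper end was not HOXD10 for the canonical TSS. These intervals, Wilson intervals of the share of calls, treat calls from 1 read as independent and leave out the spread between cultures.

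For each gene, the CpG with the smallest adjusted p in its canonical promoter or transcript was methylated more often in OCI-AML3. Before the HOXD1 TSS, 923 bp upstream, 63 of 65 reads were methylated in OCI-AML3 and 0 of 51 in OCI-AML5 (Fisher's exact test, adjusted p = 8.3e-28). The 0 of 51 allows a share of up to 5.88% (3 calls). In HOXD13, 808 bp after the TSS, the counts were 62 of 65 and 2 of 52 (exact test, adjusted p = 5.8e-24). In HOXD10, 97 bp before the canonical TSS, they were 79 of 87 and 4 of 56 (exact test, adjusted p = 1.0e-22). These are single sites that went from nearly unmethylated in OCI-AML5 to over 90% in OCI-AML3. The site of HOXD9 was at 2.86% in OCI-AML5 and 88.3% in OCI-AML3, and that of HOXD11 at 11.5% and 92.2%. Those of HOXD12, HOXD4 and HOXD3 were at 22.8%, 18.2% and 22.4% in OCI-AML5 and at 94.7%, 93.5% and 96.2% in OCI-AML3, and that of HOXD8 was methylated in 15 of 60 and 73 of 77 reads. Being the smallest of each gene, these p-values are a description.

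The difference was largest in the bins next to the start sites. In the 500 bp before the canonical TSS, the mean of the 9 gene levels was 74.2% in OCI-AML3 and 49.7% in OCI-AML5. In the 500 bp after it, the means were 77.0% and 52.8%, and in both bins all 9 genes were higher in OCI-AML3. Farther out the difference was smaller or reversed. Between 1500 and 1999 bp after the TSS the means were 38.8% and 41.0%, with 4 of 7 genes higher in OCI-AML3. From -3000 to -2501 bp they were 33.8% in OCI-AML3 and 49.7% in OCI-AML5, with 1 of 5 genes higher. The bin just after the TSS was also the most methylated of the profile in both lines, unlike the unmethylated start site that is usual for a CpG-rich promoter.

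**Figure D3:**
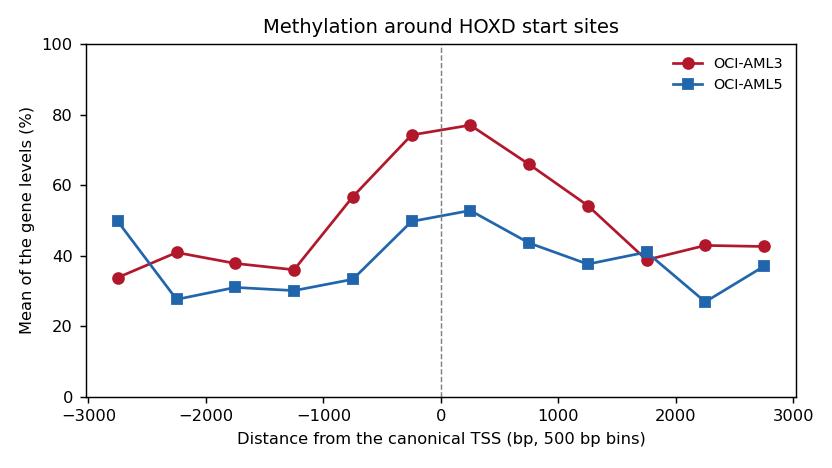
Mean of the gene levels (%) in 500 bp bins against the distance from the canonical TSS in bp, for genes with enough tested CpG dinucleotides in the bin. The lines are farthest apart in the 500 bp before the TSS, 74.2% in OCI-AML3 and 49.7% in OCI-AML5.

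Within the genes, every first exon was higher in OCI-AML3, and the last exons went in both directions. The first exon of the canonical transcript was higher in OCI-AML3 in 9 of 9 genes, with a median difference of 24.1 points and a range of 10.4 (HOXD10) to 35.6 points (HOXD11). HOXD11 exon 1, shown in part above, was 94.3% in OCI-AML3 and 58.6% in OCI-AML5, with 70 of 120 called higher and 0 lower. HOXD12 exon 1 was close to it at 90.5% and 54.9%, with 41 of 54 called higher and 2 lower. The last exon, which encodes the homeodomain in HOX genes, was higher in 7 of 9 genes with a median difference of 12.6 points. The exceptions were the 2 outermost genes. HOXD13 exon 2 was 26.0% in OCI-AML3 and 37.6% in OCI-AML5, and HOXD1 exon 2 was 34.8% and 59.7%, with 2 called higher and 9 lower of 26. Among introns, the first of HOXD9 (63.7% in OCI-AML3, 7 of 11 called higher) and of HOXD10 (66.1% in OCI-AML3, 23 of 37 called higher) differed by 38.7 and 33.1 points.

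Sequence outside the promoter windows and gene bodies was not higher on average, but the long annotations of HOXD3 and HOXD10 left little of it. Over 349 CpG dinucleotides of that kind, the mean was 35.7% in OCI-AML3 and 40.6% in OCI-AML5. Of these, 50 (14.3%) were called higher and 69 (19.8%) lower, against 3.86% and 14.7% genome-wide. Outside the canonical transcripts alone, 1675 CpG dinucleotides were higher on average, at 52.6% in OCI-AML3 and 41.3% in OCI-AML5. There, 516 (30.8%) were called higher and 183 (10.9%) lower. Inside the windows and bodies, 2966 CpG dinucleotides had 61.5% and 44.4%, with 1100 (37.1%) called higher and 212 (7.15%) lower. The intervals between neighbouring canonical transcripts also ranged widely. HOXD10 to HOXD9 was higher by 24.1 points and HOXD12 to HOXD11 by 19.6 points, whereas HOXD13 to HOXD12 differed by 4.94 points and HOXD3 to HOXD1 by 1.70 points. In the HOXD3 to HOXD1 interval 67 CpG dinucleotides were called higher and 48 lower, so its small mean difference held changes in both directions.

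The higher calls lay mostly in CpG-dense sequence. Density was the number of CpG dinucleotides within 250 bp on either side, with classes of under 10 (sparse), 10 to 24 (middle) and 25 or more (dense) that were chosen after seeing the data. The 2092 dense CpG dinucleotides of the cluster had a mean of 68.3% in OCI-AML3 and 47.1% in OCI-AML5, a difference of 21.1 points, with 868 (41.5%) called higher and 104 (4.97%) lower. The 900 of the middle class had 44.1% and 37.2%, with 232 called higher and 119 lower (2.93% and 12.8% in this class genome-wide). The 323 sparse ones had 38.7% and 42.7%, with 50 (15.5%) called higher and 58 (18.0%) lower, against 4.03% and 16.6% genome-wide. The share of higher calls thus rose with density, and the mean of the sparse class was lower in OCI-AML3. Genome-wide, 5.76% of dense CpG dinucleotides were called higher and 10.7% lower, and the dense means were 38.9% in OCI-AML3 and 41.9% in OCI-AML5.

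**Figure D4:**
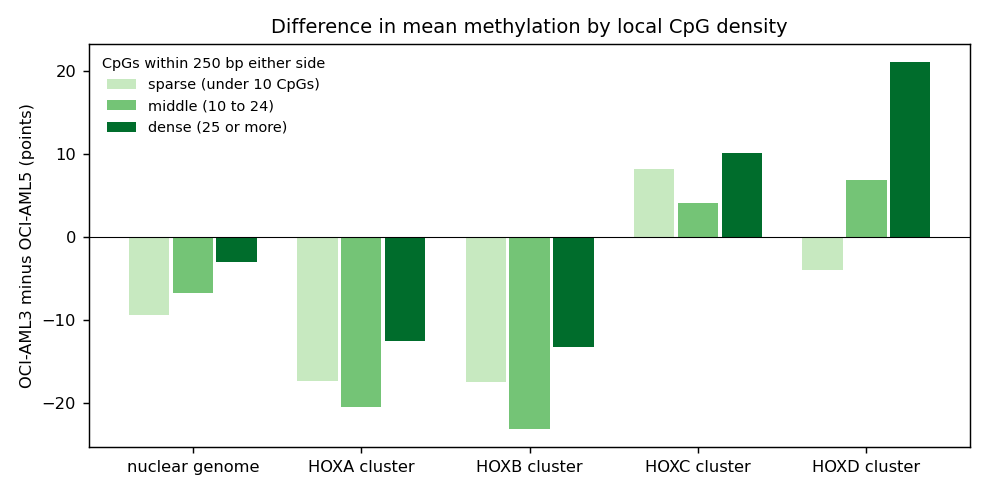
Difference in mean methylation level, OCI-AML3 minus OCI-AML5 in percentage points, for sparse, middle and dense CpG dinucleotides of the nuclear genome and the 4 HOX clusters. In the HOXD cluster the bars run from -3.98 (sparse) over 6.92 to 21.1 points (dense), and in the genome, HOXA and HOXB all 3 bars are below 0. In HOXC all 3 are above 0, at 8.19 (sparse), 4.12 (middle) and 10.2 points (dense).

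Joined into stretches of at least 200 bp and 20 tested CpG dinucleotides, the dense sequence of the cluster formed 24 stretches. Of these, 20 were higher in OCI-AML3 and 4 lower, with a median difference of 19.3 points, and 11 were higher by over 20 points. Of 35153 such stretches in the nuclear genome, 3.58% were higher by over 20 points and 7.79% lower by over 20 points, with a median of -1.18 points. All 13 stretches that overlap a canonical HOXD transcript were higher, by 11.3 to 39.6 points. The 11 outside these transcripts included all 4 that were lower and ranged from -21.7 to 51.3 points.

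**Figure D5:**
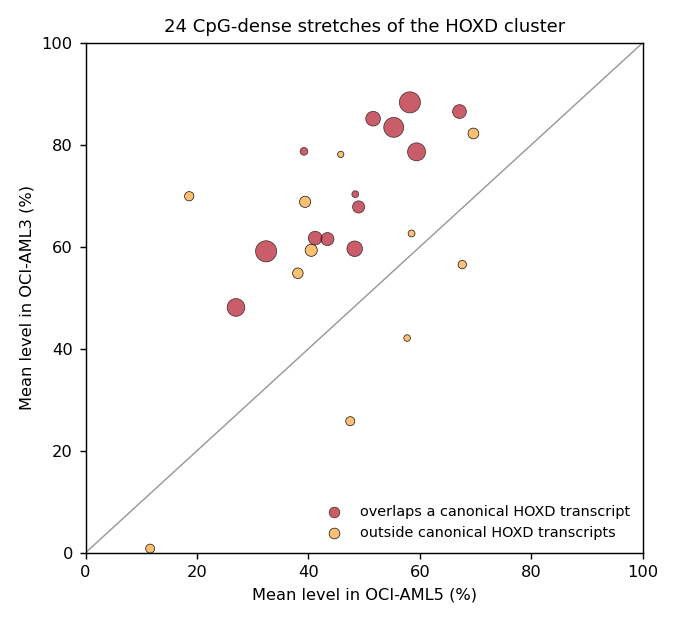
Mean methylation level of each dense stretch in OCI-AML3 against OCI-AML5 (%), with the area of a point in proportion to its tested CpG dinucleotides and the line marking equal levels. The 13 stretches on canonical transcripts all lie above the line, and the 4 below it lie outside canonical transcripts.

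The largest gain of any stretch was between HOXD8 and HOXD4, at chr2:177005165-177005720, in an intron of a long HOXD3 transcript. It stood at 69.9% in OCI-AML3 and 18.6% in OCI-AML5, and 40 of 44 CpG dinucleotides were called higher and 0 lower. Part of its sequence is shown above. The second was in HOXD10, at chr2:176982108-176982543, with 78.7% and 39.2% and 22 of 31 called higher. Neither holds a canonical HOXD start site, and both gained more than any stretch that does. The stretches at the start sites of HOXD12, HOXD11, HOXD9 and HOXD8 rose by 33.5, 30.1, 28.1 and 26.8 points.

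Of the 4 lower stretches, the one between HOXD13 and HOXD12, at chr2:176962142-176962674, was 0.819% in OCI-AML3 and 11.6% in OCI-AML5, with 12 of 41 called lower. Of the 24 stretches it alone had a level under 20% in OCI-AML3. The largest decrease was after HOXD3, at chr2:177039423-177040095 in the noncoding gene HAGLR, with 25.8% in OCI-AML3 and 47.5% in OCI-AML5. The remaining 2, between HOXD11 and HOXD10 and before HOXD4, fell to 42.1% from 57.7% and to 56.5% from 67.6%. Lower stretches were 282 to 673 bp long and held a median of 6.97 CpG dinucleotides per 100 bp, and the higher ones were 281 to 2633 bp long with a median of 8.01.

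Called CpG dinucleotides of 1 direction lay in runs. Runs of at least 5 called CpG dinucleotides, with gaps of at most 300 bp and none called the other way between them, numbered 47 higher and 14 lower in the cluster. They covered 25005 bp and 4959 bp. Of 172196 runs in the nuclear genome, 13.6% were higher in OCI-AML3, against 77.0% in the HOXD cluster. The longest, over the HOXD11 TSS at chr2:176971789-176973491, held 88 called CpG dinucleotides over 1703 bp, at 90.6% in OCI-AML3 and 58.4% in OCI-AML5. Those over the HOXD8, HOXD9, HOXD1 and HOXD12 start sites held 86, 72, 66 and 62.

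Some lower runs held large differences. In HOXD13 exon 2, at chr2:176959342-176959365, all 5 CpG dinucleotides were called lower, with 3.65% in OCI-AML3 and 86.6% in OCI-AML5. At the 3′ end of HOXD3, at chr2:177037625-177037711, another run of 5 stood at 14.4% and 86.4%. Both lay outside dense sequence, with 12 to 14 CpG dinucleotides within 250 bp, in genes whose start sites were higher in OCI-AML3. In HOXD1 exon 2 a lower run of 8 called CpG dinucleotides (16.9% and 49.6%) followed the higher run of 66 over its start.

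CpG dinucleotides moved up from both the low and the intermediate class of OCI-AML5. In OCI-AML5, 28.6% of the cluster's CpG dinucleotides were under 20%, 44.9% were intermediate and 26.5% were above 66%. In OCI-AML3 the shares were 19.2%, 32.2% and 48.6%. Of the 1490 intermediate ones in OCI-AML5, 743 were above 66% in OCI-AML3 and 212 were under 20%. Of the 947 low ones in OCI-AML5, 365 were intermediate and 204 were high in OCI-AML3. Some also moved down from the high class: of the 878 high ones in OCI-AML5, 168 were intermediate and 46 were low in OCI-AML3. An intermediate level can come from a mixture of cells, of alleles or of both, which these counts per CpG do not separate.

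The 2 flanks of the cluster differed in their dense CpG dinucleotides, and where the increase ended was not located. In the 100 kb before the HOXD13 promoter, dense CpG dinucleotides were also higher, 64.1% in OCI-AML3 and 42.7% in OCI-AML5, with 282 (43.1%) called higher. They include EVX2, a homeobox gene next to HOXD13, whose body was 75.4% and 42.5% with 213 called higher and 9 lower of 376. Sparse CpG dinucleotides of the same flank were lower, at 53.9% in OCI-AML3 and 76.3% in OCI-AML5. Over all CpG dinucleotides of that flank, the mean was 58.7% in OCI-AML3 and 55.6% in OCI-AML5. In the 100 kb after HOXD1 it was 54.5% and 71.1%, with 6 (0.833%) called higher and 178 (24.7%) lower. Sparse CpG dinucleotides were lower there too (52.5% and 73.7%). Only 72 dense ones were tested after HOXD1, and they were low in both lines (14.8% and 17.4%). The promoters of the outer neighbours LNPK (17.1% and 14.4%) and MTX2 (22.8% and 29.5%) differed by 2.76 and -6.71 points. In OCI-AML3 both were below every HOXD promoter, whereas in OCI-AML5 the HOXD13 promoter (27.3%) was below that of MTX2.

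The other HOX clusters did not all behave in the same way. Promoters higher by over 20 points numbered 1 of 11 in HOXA, 0 of 10 in HOXB and 1 of 9 in HOXC, against 5 of 9 in HOXD. Those lower by over 20 points numbered 6, 1, 0 and 0. The median promoter difference was -20.4 points in HOXA, -6.83 in HOXB and 6.42 in HOXC, and 20.8 in HOXD. HOXA10, a paralog of HOXD10, was 2.13% in OCI-AML3 and 63.7% in OCI-AML5, whereas HOXA4 was 95.4% and 54.4%. Over all CpG dinucleotides of these clusters, 4.84% were called higher and 28.4% lower in HOXA, 8.95% and 32.2% in HOXB, and 25.9% and 15.2% in HOXC. HOXC was therefore nearest to HOXD in its calls. With 1 library per line, no test of these differences between clusters was made.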

How the data were processed

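WGBS libraries of OCI-AML3 and OCI-AML5 were sequenced with 100 bp paired-end reads, and the authors aligned them to hg19 and made the methylation calls with Bismark (the submitters' processing notes also name Bowtie 0.12.8). The deposited tables give, for every CpG, raw counts of calls of either kind, joined over both strands and not smoothed. Whether duplicate reads had been removed is not given in the sources used here. Since a C-to-T variant is read as an unmethylated call, a line that carries one appears unmethylated at that CpG. The listed position of each chromosome 2 CpG was its G, and in all cases the base before it was a C of the reference.

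Levels were methylated calls over all calls. Means and tests used the sites that were read over 5 times in each line. Every such CpG of the nuclear genome was tested with a 2-sided Fisher's exact test on the counts, with Benjamini–Hochberg adjustment and calls at 0.05. The test was checked on simulated data. Promoters and transcripts were from GENCODE 44 lifted to GRCh37. The long HOXD3 annotation spans HOXD4 and that of HOXD10 overlaps HOXD11, so some CpG dinucleotides count for 2 genes. Comparisons of windows rest on differences of means with a threshold of 20 points and no test, as there is 1 library per line. Dense CpG dinucleotides at most 250 bp apart were joined into stretches. Alternatives covered the read minimum, averaging over calls, the TSS, the promoter width, the run length and the density rule. The genes named are the 9 members, the noncoding and flanking genes and the other HOX genes. Members and lists were chosen with earlier results of these data known. Python 3.11.15 was used, with scipy 1.17.1 and numba 0.67.0 for the tests, numpy 2.4.6 and pandas 2.3.3 for the tables, and matplotlib 3.10.9.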

Additional observations from a re-analysis of the deposited data

How the results depend on the processing

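The direction of every HOXD promoter held in the 45 alternative values computed for the 9 genes (0 reversed), but sizes moved with the window. For HOXD13, HOXD12, HOXD9, HOXD4 and HOXD1 the canonical TSS is the most upstream one, and at HOXD8 it lies 11 bp away. Their values for the canonical TSS thus repeat the main ones and could not reverse. The promoters higher by over 20 points numbered 5 within 2000 bp of the most upstream TSS, 7 within 1000 bp of it (HOXD13 added at 20.4 points and HOXD1 at 22.5), and 4 around the canonical TSS (HOXD11 added, HOXD10 and HOXD3 lost). With the 2000 bp before the TSS alone they numbered 5, with HOXD13 (20.4 points) and HOXD1 added and HOXD12 (17.0) and HOXD3 (6.85) lost, and HOXD4 differed by 1.65 points. The cluster mean difference of 14.8 points became 15.5 with at least 10 reads, 16.7 with at least 20 reads and 16.4 as a share of calls. Dense CpG dinucleotides, higher by 21.1 points, were higher by 19.5, 24.9 and 21.7 points under other density rules, which were chosen after seeing the data. Dense stretches higher by over 20 points, 11 in the main setting, numbered 8, 13 and 8 under these rules. Runs depended most on their minimum length. With at least 10 called CpG dinucleotides, 30 higher runs remained against 47 and 2 lower runs against 14, and with at least 3, lower runs numbered 31, since shorter runs then count. No paired analysis was possible because each line had 1 library. For the same reason no replicate could be left out and the spread between cultures is unknown.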

Other observations

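Most noncoding genes inside the cluster share CpG dinucleotides with the HOXD windows or bodies, so their values largely count the same sites again. HOXD-AS2, an antisense RNA that spans HOXD9 and HOXD8, had a body level of 61.5% in OCI-AML3 and 38.4% in OCI-AML5, with 296 called higher and 27 lower of 670. The promoter window of HAGLR, which starts opposite HOXD1 and shares most of its window with that gene, had 70.3% and 54.8%. That of HAGLROS, between HOXD3 and HOXD1, had 53.2% and 39.9%. MIR10B, the microRNA before HOXD4, differed less, with 55.4% and 47.4% within 2000 bp of its start, and its hairpin of 5 CpG dinucleotides had 49.8% and 40.7% with 1 called higher. Lower bodies were seen in 2 genes. AC009336.1, a microRNA gene in HOXD11, had 3 tested CpG dinucleotides at 31.7% in OCI-AML3 and 43.7% in OCI-AML5, none of them called. The gene at the far end listed as ENSG00000279160 overlaps HOXD1 exon 2 and had a body level of 23.7% in OCI-AML3 and 46.1% in OCI-AML5, with 1 called higher and 10 lower of 31.

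Runs of nearly unmethylated sequence in 1 line stood out within the cluster. Between HOXD4 and HOXD3, at chr2:177019626-177019859, the level was 1.11% in OCI-AML5 and 49.1% in OCI-AML3, with 6 of 7 CpG dinucleotides called higher. Inside HOXD13, at chr2:176958631-176958818, 5 of 5 were called higher, from 6.26% in OCI-AML5 to 58.9% in OCI-AML3. In HOXD8 exon 2, at chr2:176996083-176996323, the order was reversed, with 2.38% in OCI-AML3 and 37.9% in OCI-AML5 and 6 of 9 called lower. These 3 runs were named after their values were seen.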
